A study of Mus musculus with 10 samples.

Results

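ABC transporters are membrane proteins that spend ATP to carry lipids, drugs, conjugates or metal-containing compounds across a membrane. The members described here are the protein-coding genes of the deposited table whose symbols begin with Abca, Abcb, Abcc or Abcg followed by a digit. The rule found 42 genes among 56748 in the table, 16 in subfamily A, 10 in B, 10 in C and 6 in G. Abcd, Abce and Abcf genes were left out, as were ABC proteins with other names, such as Cftr, Tap1 and Tap2.

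Subfamily A proteins mostly move phospholipids and sterols. Subfamily B holds P-glycoprotein, a drug efflux pump, together with pumps of mitochondria, lysosomes and the bile canaliculus. Subfamily C holds the multidrug resistance-associated proteins, which export glutathione, glucuronide and nucleotide conjugates, and subfamily G holds sterol exporters and the breast cancer resistance protein. In the intestine P-glycoprotein returns drugs to the lumen, while Abcc3 faces the blood side of the cell.

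The libraries were made from mouse colon organoids, cultures of intestinal epithelium grown from crypt cells. Cultures had been passaged 3 days earlier when they received WY-14643, a synthetic agonist of the nuclear receptor PPARα, at 100 µM, or its vehicle, and exposure lasted 2 days. Replicates 1 to 5 received vehicle and replicates 6 to 10 WY-14643, 5 libraries of polyadenylated RNA in each group, and the labels used here give no genotype, strain, age or sex. The labels do not say whether replicates were separate cultures or animals, so the p-values speak only to variation among these 10 libraries, possibly of technical origin. Values are FPKM, fragments scaled for gene length and library size, so levels can be compared between genes.

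Between 15618244 and 29271304 reads were recovered per library, of which 25164 to 60956 fell on the 42 members. Vehicle replicate 1 varied with WY-14643 replicate 6, replicate 2 with 7 and so on in numbered order, so a fit that blocks on the pair is given beside the fit without pairs. All 8 epithelial markers were present, with summed levels of 2511 to 4483 FPKM in vehicle and 2422 to 4897 FPKM in the WY-14643 libraries. Of the 6 colon markers 3 passed the expression filter, among them Car1, while the distal genes Hoxb13, Hoxd12 and Hoxd13 were at 0 in every library, as was Car4 among 8 colonocyte markers. The 6 fibroblast markers summed to at most 0.214 FPKM, the 6 immune markers to at most 1.32 FPKM and the 4 endothelial markers to at most 0.164 FPKM, with Dcn, Lum, Cd3e, Lyz2 and Adgre1 at 0. In bulk RNA, fewer cells of a type and less RNA per cell cannot be told apart.

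Abcb1a, Abcb1b and Abcb4 of subfamily B lie in tandem on chromosome 5 with a wide contrast of level. Abcb1a averaged 46.2 FPKM over the 10 libraries, Abcb1b 0.468 FPKM and Abcb4 0.00543 FPKM. Abcb1a and Abcb1b both encode P-glycoprotein in mice, and Abcb4 encodes the phosphatidylcholine exporter of the bile canaliculus. The sequences before the 2 genes at low level are shown, since they belong to the group with this contrast. No window is shown for Abcb1a, because its RefSeq start lies 92986 bases from the start of the GENCODE M21 gene in the same build, while the starts of Abcb1b and Abcb4 lie 0 and 4 bases from theirs. The 250 bases before the RefSeq start (build GRCm38.p6, plus strand, 5′ to 3′) are at chr5:8797897-8798146 for Abcb1b and chr5:8893471-8893720 for Abcb4. Capitals mark CCAAT and GGGCGG on either strand, elements common in promoters.
Abcb1b: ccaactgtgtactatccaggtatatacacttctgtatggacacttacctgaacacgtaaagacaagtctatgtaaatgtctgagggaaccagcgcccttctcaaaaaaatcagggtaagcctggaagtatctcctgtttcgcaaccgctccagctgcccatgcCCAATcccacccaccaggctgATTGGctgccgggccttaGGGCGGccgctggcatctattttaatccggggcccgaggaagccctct
Abcb4: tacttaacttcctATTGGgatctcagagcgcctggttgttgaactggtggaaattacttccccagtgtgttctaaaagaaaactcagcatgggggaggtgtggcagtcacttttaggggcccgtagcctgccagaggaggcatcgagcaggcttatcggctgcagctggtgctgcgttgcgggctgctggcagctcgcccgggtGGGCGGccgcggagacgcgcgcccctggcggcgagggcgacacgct
The Abcb1b window held CCAAT from -87 to -83, its reverse complement from -66 to -62 and GGGCGG from -48 to -43, counted from the start, and was 52.8% G and C. The Abcb4 window held a reverse-complement CCAAT from -237 to -233 and GGGCGG from -46 to -41, and was 61.6% G and C.

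RefSeq entries were found for 33 of the 42 members, 38 starts in all, of which 31 lay within 1000 bases of the GENCODE M21 gene start and 7, that of Abcb1a among them, lay farther away. Among 32851 starts of all genes, 33.8% held CCAAT and 32.7% GGGCGG in their 250 bases, against 28.9% and 42.1% of the member starts. The DR1 repeat used by PPAR receptors (AGGTCA and AGGTCA in the same direction with 1 base between them) was in 0 of the 38 member windows and in 0.0335% of all windows. The DR4 repeat, with 4 bases between, used by the liver X receptor and the xenobiotic receptor PXR, was in 0 and in 0.0152%. TGACNNNGC, the core bound by NRF2, was in 10.5% of member windows (starts of Abcc10, Abcc2 and Abcc4) and in 10.2% of all windows. CACGTG was in 10.5% of member windows and 6.02% of all windows. All motifs were read on both strands, none overlapped another in the windows shown, and a match or its absence in these letters describes the window only.

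In the table's own coordinates (build mm39) Abcb1a lies on chromosome 5 from 8710077 to 8798575, Abcb1b follows 49571 bases later, from 8848147 to 8916315, and Abcb4 after another 27401 bases, from 8943717 to 9009231. Members also lay near one another, at most 74220 bases apart, in 5 other groups, in each of which at most 1 member passed the expression filter. Abca3, at 10.8 FPKM on the plus strand of chromosome 17 (24570924 to 24629175), starts 881 bases from Abca17, at 0.016 FPKM on the minus strand. Abca8b, Abca8a, Abca9, Abca6 and Abca5 lie side by side on chromosome 11 from 109823016 to 110228542, and none exceeded a mean of 0.0532 FPKM. Abca14, Abca15 and Abca16 lie side by side on chromosome 7 from 119803184 to 120144036, with means of 0.125, 0.00322 and 0.00232 FPKM. Abcc6 and Abcc8, 74220 bases apart on chromosome 7, had means of 0.117 and 0.0264 FPKM. Abcg5 and Abcg8 overlap by 6710 bases on opposite strands of chromosome 17, and since the strand setting of the counting is not given, their reads in the overlap cannot be told apart.

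Of the 42 members, 14 had a mean of at least 0.5 FPKM over all libraries and were tested, or 33.3%, against 50.3% of protein-coding genes. They were 5 of 16 in subfamily A, 4 of 10 in B, 5 of 10 in C and 0 of 6 in G. By mean level those reported individually ran in the order Abcc3 (61.9 FPKM), Abcb1a (46.2), Abcc5 (37.9), Abcc4 (20.8), Abcc1 (16.3), Abca7 (14.4), Abcb8 (13.6), Abca3 (10.8), Abcb10 (7.93), Abca2 (7.29), Abcc10 (3.48), Abca12 (0.774) and Abca13 (0.546). Neighbours in this order whose means differed by less than the widest SD of either gene in a group were Abcc3 and Abcb1a, Abcb1a and Abcc5, Abcc1 and Abca7, Abca7 and Abcb8, Abcb10 and Abca2, and Abca12 and Abca13. Abcb1a stood below Abcc5 in the vehicle means (34.9 and 39.1 FPKM) and above it in the WY-14643 means (57.6 and 36.7 FPKM). Subfamily C made up 47.5% to 58% of the summed member level of a library, B 25.3% to 40.9%, A 10.9% to 17% and G 0.0571% to 0.318%. Abcc3, which exports glucuronides and bile salts, stood above 94.8% of all tested genes, and Abcb1a above 92.3%.

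**Figure D1:**
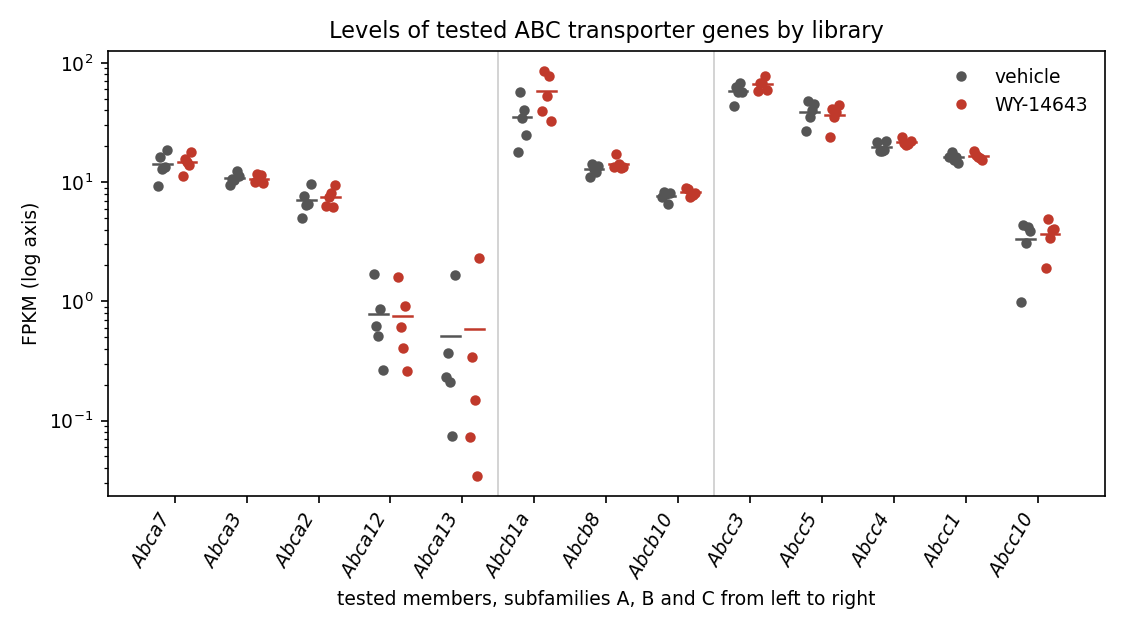
FPKM (log axis) of 13 tested members in 5 vehicle (grey) and 5 WY-14643 (red) libraries, with bars at the group means. Abcc3, Abcb1a and Abcc5 stand highest, the Abcb1a mean is 34.9 FPKM in vehicle and 57.6 FPKM with WY-14643, and Abca13 spreads most between libraries.

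No member was called between WY-14643 and vehicle in the fit without pairs, which called 0% of the 13607 genes tested (limma, adjusted p under 0.05). In that fit 0 of the 14 members also had an unadjusted p under 0.05, against 1.51% of all genes, and limma's voom on recovered reads without pairs called 0 members, with 0 at an unadjusted p under 0.05 against 1.37% of all genes. In the fit with numbered pairs as a block 0 of 14 members were called, against 0.316% of all genes. The unadjusted p was under 0.05 there for 4 of 14 members, Abcb1a, Abcc3, Abcc4 and Abcb8, against 10.6% of all genes. Voom on recovered reads with the same pairs called 1 of the 14, Abcb1a, against 1.19% of all genes called higher and 1.56% in either direction, and 11.4% had an unadjusted p under 0.05 there. Of the 14 members 10 had a log2 fold change above 0, against 47.1% of all genes. The median log2 fold change was 0.08, against -0.01 over all genes. In none of the 14 were the groups free of overlap, a separation seen in 0.243% of genes for higher and 0.11% for lower values in WY-14643.

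**Figure D2:**
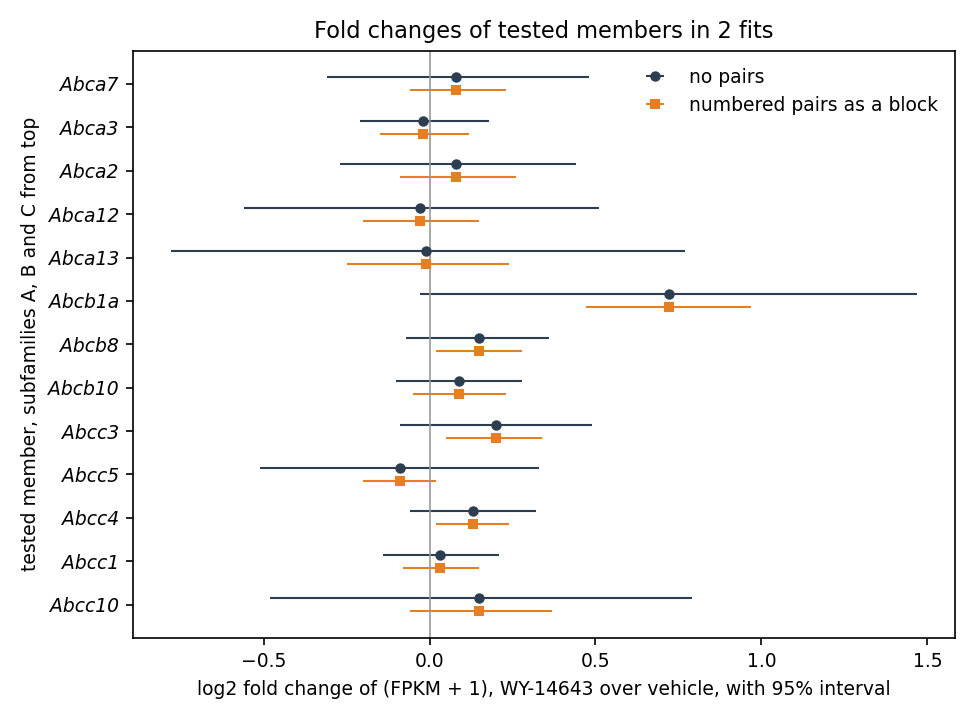
log2 fold change of FPKM + 1, WY-14643 over vehicle, of 13 tested members with 95% intervals, without pairs (circles) and with numbered pairs as a block (squares). Abcb1a lies at 0.72 with an interval of -0.03 to 1.47 without pairs and 0.47 to 0.97 with them, and the other members lie between -0.09 and 0.20.

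Abcb1a encodes the main intestinal P-glycoprotein. Its levels were 17.8, 56.9, 34.7, 40.5 and 24.7 FPKM in vehicle replicates 1 to 5 and 39.4, 85.5, 53.1, 77.1 and 32.8 FPKM with WY-14643 replicates 6 to 10. The groups overlapped, since vehicle replicates 2 and 4 stood above WY-14643 replicates 6 and 10, but every WY-14643 library stood above the vehicle library of its numbered pair. The ratios within pairs were 2.22, 1.5, 1.53, 1.91 and 1.33, and 5 of 5 higher was also the pattern of 5.63% of all tested genes. Between 1666 and 9053 reads stood behind each value, so counting error was small against the spread between libraries.

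The Abcb1a log2 fold change was 0.72 ± 0.34 without pairs (SE, limma, adjusted p = 1, unadjusted p = 0.0588) and 0.72 ± 0.10 with pairs (adjusted p = 0.0614), so neither fit called it. Voom on recovered reads with pairs called it (limma, log2 fold change 0.73 ± 0.10, adjusted p = 0.00827). It also called Abcb1a without each numbered pair in turn, with log2 fold changes of 0.64 to 0.81 and adjusted p of 6.40e-04 to 0.0341, in fits added after the data were seen. Across all 17 fits without pairs its adjusted p lay between 0.723 and 1, and across all 14 with pairs between 6.40e-04 and 0.273. The log2 fold change of 0.72 fell to 0.51 without vehicle replicate 1, the lowest library. It rose to 0.92 without vehicle replicate 2, the highest vehicle library. These values were the ends of the range over 30 alternatives.

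Abcb1b, the second mouse P-glycoprotein gene, had a mean of 0.468 FPKM and was below the filter. It was at 1.43, 0.228, 0.439, 0.572 and 0.268 FPKM in vehicle and 0.717, 0.231, 0.353, 0.232 and 0.211 FPKM in the WY-14643 libraries, lower in 4 of 5 pairs. Vehicle replicate 1, which had the least Abcb1a, had the most Abcb1b. Abcb1b made up 7.47% of the summed P-glycoprotein level in that library and 0.27% to 1.79% in the other 9. In GENCODE M21 transcripts 15.5% of the 50-base stretches of Abcb1a also occur in Abcb1b, and how such reads were counted is not given, so values of Abcb1b, with 31 to 196 reads per library, are uncertain. Abcb1b passed the filter when the pair of vehicle replicate 2 or that of replicate 5 was left out, and voom on recovered reads with pairs then gave log2 fold changes of -0.80 ± 0.20 and -0.75 ± 0.22 (SE, limma, adjusted p = 0.0902 and 0.196), in fits added after the data were seen. The same fits on log2(FPKM + 1) gave -0.25 and -0.23 (limma, adjusted p = 0.552 and 0.672), and none called it. Its mean in these subsets reached the filter through the vehicle libraries, replicate 1 at 1.43 FPKM among them. These fits are therefore no support for a decrease. The sum of both genes was 35.5 ± 14.8 FPKM in vehicle and 57.9 ± 22.9 FPKM with WY-14643 (SD, n = 5 each).

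**Figure D3:**
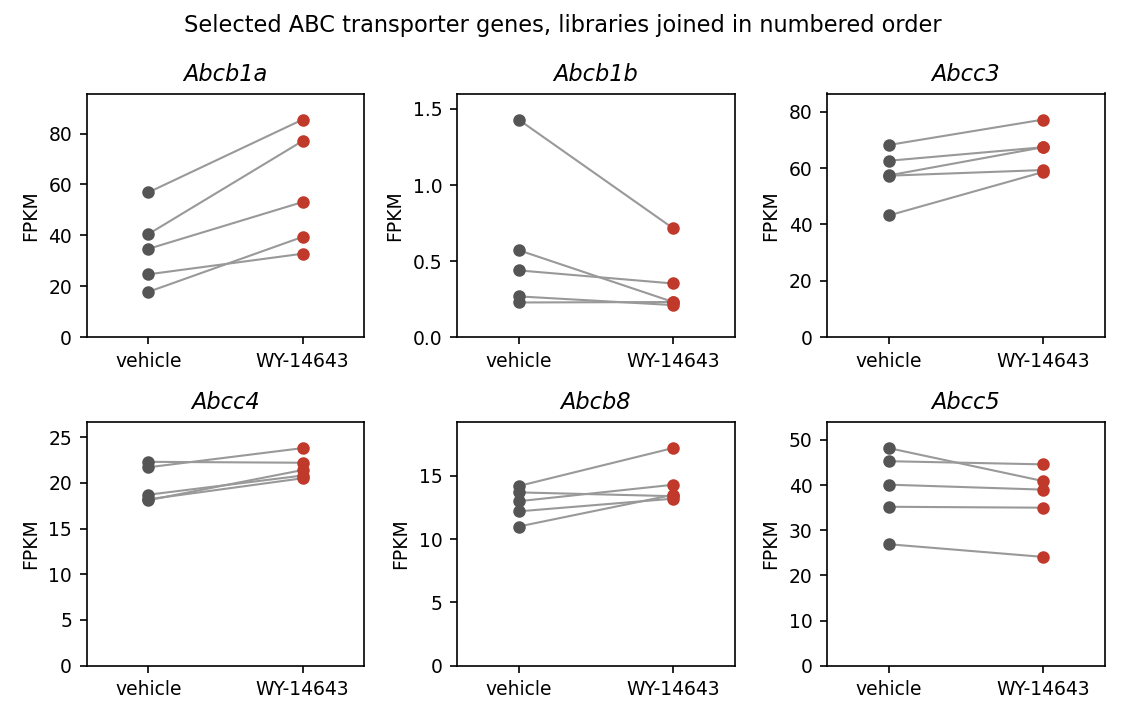
FPKM of 6 members, with vehicle (left) and WY-14643 (right) libraries joined in numbered order, axes starting at 0. Abcb1a and Abcc3 are higher and Abcc5 is lower in 5 of 5 pairs, and Abcb1b is lower in 4 of 5 pairs.

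Abcb8 and Abcb10 are proteins of the mitochondrial inner membrane. Abcb10, which takes part in haem synthesis, averaged 7.65 ± 0.704 FPKM in vehicle and 8.21 ± 0.635 FPKM with WY-14643 (SD, n = 5 each). Abcb8, part of a mitochondrial potassium channel, was at 11, 14.2, 13, 12.2 and 13.7 FPKM in vehicle and 13.5, 17.2, 14.3, 13.2 and 13.4 FPKM in the WY-14643 libraries. Its groups overlapped and 4 of 5 pairs were higher, with a log2 fold change of 0.15 ± 0.06 with pairs (limma, adjusted p = 0.412). The intervals without pairs were -0.07 to 0.36 for Abcb8 and -0.10 to 0.28 for Abcb10, both within a change of 1.29-fold.

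Subfamily C held 3 of the 4 most abundant members. Abcc3 was at 43.2, 62.6, 57.4, 68.2 and 57.3 FPKM in vehicle and 58.6, 67.4, 67.4, 77.2 and 59.3 FPKM in the WY-14643 libraries. The groups overlapped, with 5 of 5 pairs higher by 1.04- to 1.36-fold. Its log2 fold change was 0.20 ± 0.13 without pairs and 0.20 ± 0.06 with pairs (limma, adjusted p = 1 and 0.304), so it was not called. Without vehicle replicate 1, the lowest library, the change was 0.10.

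Abcc4, which exports cyclic nucleotides and prostaglandins, was at 21.7, 18.1, 18.2, 18.7 and 22.3 FPKM in vehicle and 23.8, 21.4, 20.5, 20.8 and 22.2 FPKM in the WY-14643 libraries. Vehicle replicates 1 and 5 lay within the WY-14643 range, and the other 3 vehicle libraries lay below it. The log2 fold change was 0.13 ± 0.05 with pairs (limma, adjusted p = 0.358), and 4 of 5 pairs were higher.

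Abcc5, an exporter of cyclic GMP and nucleotide analogues, was the member that stood lower in 5 of 5 pairs, a pattern of 6.09% of all tested genes. It was at 26.9, 48.2, 35.2, 40.1 and 45.3 FPKM in vehicle and 24.1, 40.9, 35, 39 and 44.6 FPKM in the WY-14643 libraries. The ratios within pairs were 0.85 to 0.995, and vehicle replicate 1 and WY-14643 replicate 6 were the lowest of their groups. The log2 fold change was -0.09 ± 0.05 with pairs (limma, adjusted p = 0.555), and it turned to 0.05 without WY-14643 replicate 6.

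Abcc1, a broad exporter of glutathione conjugates, kept a narrow range, from 14.6 to 18 FPKM in vehicle and from 15.4 to 18.1 FPKM with WY-14643. Its interval without pairs was -0.14 to 0.21 on the log2 scale. Abcc10 was at 0.988, 4.41, 3.06, 4.24 and 3.88 FPKM in vehicle and 1.9, 4.88, 3.41, 3.98 and 4.05 FPKM in the WY-14643 libraries. Vehicle replicate 1 and WY-14643 replicate 6 were the lowest of their groups. The Abcc10 log2 fold change of 0.15 turned to -0.10 without vehicle replicate 1.

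Subfamily A was led by Abca7, a phospholipid exporter, at 9.22, 16.3, 12.8, 13.3 and 18.7 FPKM in vehicle and 11.3, 15.7, 14.8, 13.9 and 18 FPKM in the WY-14643 libraries. Replicates 1 and 6 were lowest and replicates 5 and 10 highest, and 3 of 5 pairs were higher. Abca3, known as the surfactant lipid pump of the lung, averaged 10.9 ± 1.16 FPKM in vehicle and 10.7 ± 0.798 FPKM with WY-14643 (SD, n = 5 each), with an interval without pairs of -0.21 to 0.18. Abca2, a sterol and sphingolipid transporter of late endosomes, averaged 7.08 ± 1.77 and 7.49 ± 1.31 FPKM. Without vehicle replicate 1 the log2 fold change of Abca2 went from 0.08 to -0.02 and that of Abca7 from 0.08 to -0.05.

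Abca12 and Abca13 differed far more between numbered pairs than between treatments. Abca12, the ceramide transporter of the skin barrier, was at 1.69, 0.616, 0.512, 0.865 and 0.265 FPKM in vehicle and 1.6, 0.612, 0.405, 0.911 and 0.26 FPKM in the WY-14643 libraries. Replicates 1 and 6 were highest and replicates 5 and 10 lowest. Abca13, the longest gene model of the subfamily, was at 0.231, 0.372, 0.209, 0.0739 and 1.65 FPKM in vehicle and 0.0734, 0.338, 0.149, 0.0342 and 2.33 FPKM in the WY-14643 libraries. Here replicates 5 and 10 were highest, so the pairs with the most and the least Abca12 did not rank alike for Abca13. The highest and lowest libraries of a group differed 6.4- and 6.18-fold for Abca12 and 22.4- and 68.2-fold for Abca13.

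The numbered pair took 99.4% of the sum of squares of Abca12, 97.5% of Abca13, 95.6% of Abcc5 and 52.6% of Abcb10, the least of the 14. Treatment took 30.5% for Abcb1a, 29.7% for Abcc4, 25.2% for Abcb8, 22.5% for Abcc3 and 17.4% for Abcb10, and at most 3.82% for the other 9. The median share of the pair was 71.3% over the members and 83.6% over all tested genes, and the median share of treatment was 2.88% and 2.27%.

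**Figure D4:**
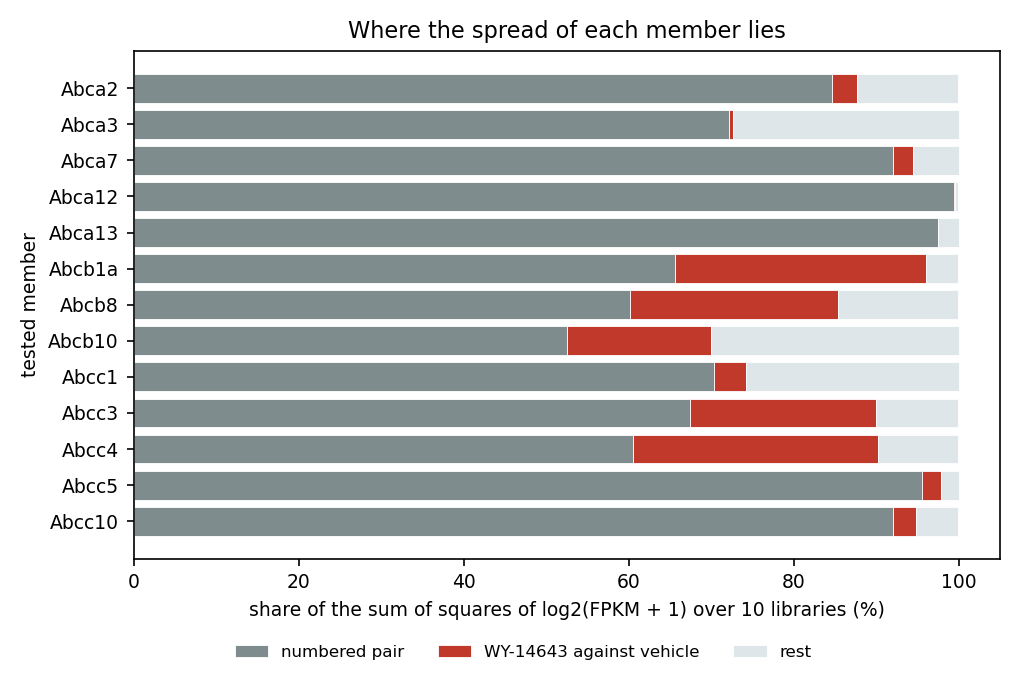
Share (%) of the sum of squares of log2(FPKM + 1) over 10 libraries taken by the numbered pair, by treatment and by the rest, for 13 tested members. Treatment takes the widest share in Abcb1a (30.5%) and under 0.2% in Abca12 and Abca13.

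The 28 members below the filter held most of the sterol exporters. Abca1, which loads cholesterol on apolipoprotein A-I, had 76 reads in the 10 libraries together, and WY-14643 replicate 6 held 28 of them. Abcg1, which passes cholesterol to high-density lipoprotein, had 55 reads, 15 in vehicle and 40 in WY-14643 libraries, with 18 in replicate 6 and 16 in replicate 10. Its FPKM was higher in 5 of 5 pairs, at 0.032, 0.00472, 0, 0.00869 and 0.0575 in vehicle and 0.155, 0.00816, 0.0247, 0.0154 and 0.0947 in WY-14643 libraries. Vehicle replicate 2 and WY-14643 replicate 7 held 1 read each, so the order of that pair rests on library size alone. Vehicle replicate 4 held 1 read and WY-14643 replicate 9 held 2. Abcg5 and Abcg8, which together return sterols to the gut lumen, had 17 and 18 reads, at most 7 and 4 in a library.

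Among drug pumps below the filter, Abcg2, the breast cancer resistance protein, was at 0.0159 to 0.355 FPKM with 3 to 52 reads per library. Abcc2, the canalicular exporter of conjugates, had 1 to 14 reads per library. The highest of the 28 were Abcb1b (0.468 FPKM), Abca4 (0.361), Abcb6 (0.209) and Abcb9 (0.187). Abca4, the retinal lipid flippase of photoreceptors, averaged 0.402 ± 0.0601 FPKM in vehicle and 0.32 ± 0.0458 FPKM with WY-14643 (SD, n = 5 each), lower in 4 of 5 pairs. Abca6 and Abca9 had 0 reads in every library; a count of 0 allows up to 3 reads, or 0.0353 FPKM for Abca6 and 0.0236 FPKM for Abca9 in the library with the largest step per read. Abcc8 and Abcc9, the sulfonylurea receptors, had 39 reads and 1 read in all.

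With no filter 26 of the 28 could be fitted as log2(FPKM + 1), where changes at such levels are compressed, and 0 were called without or with pairs (limma, smallest adjusted p = 1 and 0.771), with 0 at an unadjusted p under 0.05 in either fit, against 1.94% and 6.24% of 28804 genes. These limits cover counting error only, and changes of members at a few reads were not detectable at this depth. Reads are not independent molecules, since no molecular identifiers are described.

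**Figure D5:**
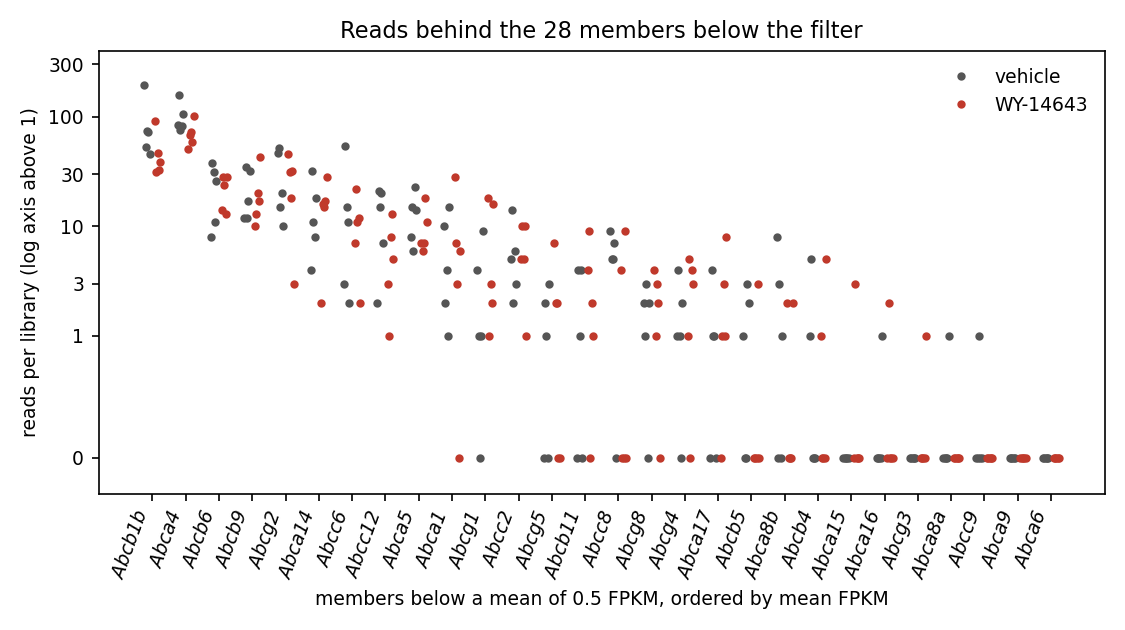
Reads per library (log axis above 1) of the 28 members below 0.5 FPKM, ordered by mean FPKM, in vehicle (grey) and WY-14643 (red) libraries. Abcb1b reaches 196 reads and Abca4 158 reads, Abca6 and Abca9 stay at 0, and the sterol exporters Abca1, Abcg1, Abcg5 and Abcg8 stay at 28 reads or fewer.

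By role, the drug and conjugate exporters had 6 of 13 members tested, with 5 above 0, 1 below and a median log2 fold change of 0.14. The lipid exporters had 5 of 16 tested, with 2 above 0, 3 below and a median of -0.01, and the organelle pumps 3 of 5 tested, 3 above 0 and a median of 0.09. None of these members was called in either fit, and the difference between the roles was not tested. The median over all genes tested was -0.01.

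ABC proteins outside the rule were expressed more widely, with 10 of 11 tested and 0 called without or with pairs. Abcd3, a peroxisomal fatty acyl-CoA transporter, was at 35.2 ± 6.43 FPKM in vehicle and 46.7 ± 9.49 FPKM with WY-14643 (SD, n = 5 each), higher in 5 of 5 pairs, with a log2 fold change of 0.39 ± 0.06 with pairs (limma, adjusted p = 0.0556). Cftr, the chloride channel of subfamily C, was at 24.7 ± 2.22 and 22.5 ± 2.27 FPKM and lower in 5 of 5 pairs (limma with pairs, adjusted p = 0.327). Abcf1, a translation factor, was at 48.4 ± 1.66 and 44.8 ± 4.16 FPKM and also lower in 5 of 5 pairs (adjusted p = 0.474).

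Of the receptors that are known to act on ABC genes, 9 of 11 listed sensors were tested, and Nr1i2, which encodes PXR, was the 1 call with pairs, where 0.287% of all genes were called higher. It was at 5.91 ± 3.73 FPKM in vehicle and 8.4 ± 4.54 FPKM with WY-14643 (SD, n = 5 each; limma with pairs, log2 fold change 0.47 ± 0.06, adjusted p = 0.0462; adjusted p = 1 without pairs). Ppara itself averaged 0.298 and 0.336 FPKM and Nr1i3, which encodes CAR, 0.00735 and 0.0364 FPKM, both below the filter. The NRF2 gene Nfe2l2 averaged 114 ± 7.49 and 123 ± 8.17 FPKM and was not called.

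Of 19 other drug-response genes 15 were tested, 14 had a log2 fold change above 0 and the median was 0.44, but 0 were called in either fit. With pairs 12 of the 15 had an unadjusted p under 0.05, against 10.6% of all genes. Hmox1, the haem oxygenase, averaged 17.7 ± 5.19 FPKM in vehicle and 25.3 ± 4.16 FPKM with WY-14643 (SD, n = 5 each), and Gstm1, a glutathione transferase, 22.8 ± 6.95 and 37.9 ± 13.9 FPKM. Cyp1b1, a cytochrome P450, averaged 3.32 ± 2.2 and 7.76 ± 6.42 FPKM, and Gclc, of glutathione synthesis, 62.9 ± 8.57 and 77 ± 12.4 FPKM (limma with pairs, adjusted p = 0.0536 and 0.054). The PXR targets Cyp3a11 and Cyp2b10 were below the filter. Cyp3a13, with a log2 fold change of -0.21, was the 1 tested gene of the list below 0. Ces2c, Ces2a and Ugt1a1 of the same list were higher in 5 of 5 pairs and Ces2e in 4. Their log2 fold changes were 0.96, 0.23, 0.59 and 0.44, and none was called.

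Liver X receptor genes and targets other than ABC genes had 10 of 14 tested, with 7 above 0, a median of 0.09 and 0 calls. Lpcat3, a phospholipid acyltransferase, averaged 42.1 ± 10.5 FPKM in vehicle and 58.1 ± 9.97 FPKM with WY-14643 (SD, n = 5 each; limma with pairs, adjusted p = 0.0684). Nr1h2, the receptor LXRβ, averaged 18.8 ± 2.2 and 20 ± 2.72 FPKM, and Nr1h3, LXRα, was below the filter at 0.183 and 0.182 FPKM. Apoa1, the usual acceptor of Abca1 cholesterol, was also below it, at 0.0396 and 0.014 FPKM.

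Genes of sterol uptake and storage had 11 of 17 tested, a median of 0.01 and 0 calls. Lipa, the lysosomal acid lipase, averaged 5.27 ± 1.13 FPKM in vehicle and 7.74 ± 2.41 FPKM with WY-14643 (SD, n = 5 each; limma with pairs, adjusted p = 0.135), while Npc1l1, the cholesterol uptake protein of the small intestine, was at 0.0829 and 0.0882 FPKM. Solute carriers of drugs and bile acids had 10 of 18 tested, a median of 0.04 and 0 calls. Slc22a5, the carnitine carrier, averaged 7.76 ± 0.621 and 9.88 ± 1.24 FPKM (adjusted p = 0.083). As a check of the treatment, all 19 tested PPARα targets had a log2 fold change above 0, with a median of 0.60. With pairs 7 of them were called higher, against 0.287% of all genes. Without pairs 0 of them were called, as were 0 of all genes.

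Levels of differentiation markers also differed between pairs, and they are given beside Abcb1a because its spread between libraries was wide. The 8 absorptive colonocyte markers summed to 85.4, 129, 97.5, 159 and 32.2 FPKM in vehicle and 131, 123, 120, 219 and 34.6 FPKM in the WY-14643 libraries, higher in 4 of 5 pairs. Of 6 tested colonocyte markers 6 had a log2 fold change above 0 and 0 were called. The 4 proliferation markers summed to 201, 71.2, 138, 26.2 and 120 FPKM and to 184, 95, 125, 36 and 104 FPKM. All 4 were tested, with 4 log2 fold changes above 0, 0 below and 0 calls. The 6 small intestine absorptive markers, of which 2 were tested and 0 called, summed to 7.69, 29.7, 16.9, 36.8 and 7.15 FPKM and to 10.5, 24.4, 25, 76.6 and 9.2 FPKM, also higher in 4 of 5 pairs. The 6 colon markers, of which 3 were tested and 0 called, summed to 98.6, 913, 262, 574 and 47.3 FPKM and to 333, 850, 455, 1639 and 72.4 FPKM. Most of this sum was Car1, with means of 360 FPKM in vehicle and 652 FPKM with WY-14643. Muc2 of the same list was lower in every numbered pair, with means of 6.28 and 4.6 FPKM. The small intestine and colon sums were highest in vehicle replicates 2 and 4 and in WY-14643 replicate 9. Replicates 2 and 4 of the vehicle and 7 and 9 of the WY-14643 libraries had the least proliferation signal and the most Abcb1a of their groups. Within these pairs the proliferation sum was higher with WY-14643, and within the remaining pairs it was lower, while Abcb1a was higher in every pair. The 7 goblet markers summed to 34.9, 41.3, 73.9, 54 and 38.4 FPKM in vehicle and 18.8, 36.4, 76.5, 38.4 and 42.1 FPKM in the WY-14643 libraries. Of 6 tested goblet markers 1 had a log2 fold change above 0 and 5 below. Of 4 tested stem cell markers 2 were above 0 and 2 below, and 0 were called in either list. The part of these cell states in the Abcb1a difference was not tested.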

How the data were processed

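The authors deposited a table of FPKM for 56748 genes with a column per library, 5 vehicle and 5 WY-14643. Alignment and counting tools named per the submitters' processing notes are HISAT2 2.0.5 and featureCounts 1.5.0-p3, with mm39 as the build. The annotation release, strand setting and handling of multiply matching reads were not given in the sources used here. FPKM times gene length was a whole multiple of 1 step per library in 100% of values (tolerance 0.01), which gave reads per gene. Gene length in bases is another column per the file headers. The 13607 genes averaging 0.5 FPKM or more were compared with limma 3.58.1 in R 4.3.3 on log2(FPKM + 1), eBayes with trend and robust priors, Benjamini-Hochberg adjustment over all of them and a threshold of 0.05; this scale understates changes of low genes.

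Labels share no replicate numbers between groups, so the main comparison has no pairs. Deviations from group means correlated at 0.423 to 0.782 for numbered pairs and at most 0.0602 for other pairs of a vehicle and a WY-14643 library; this order is read from the correlations and the numbering, not from a label. No libraries were duplicates (chi-square per degree of freedom of reads at least 9.37). Both fits were also run on simulated data, where only the fit with pairs was required to recover the larger of the added changes. That run is no check of the fit without pairs. Alternatives were other pseudocounts, filters, scaling, library weights, voom on recovered reads and leaving out libraries. The scaling factor (median ratio) was 1.01 in every library, so that alternative nearly repeated the main fit and is no separate check.

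The members and gene lists were chosen with earlier results of these data known. Of the 14 members with a mean of at least 0.5 FPKM, 13 are named; 1 enters the counts and medians but is not reported here. Values of every library are given for the 4 members with the smallest p in each fit, the most abundant of each subfamily and well-known exporters, and of members below 0.5 FPKM the highest 4 are named. Of each other list up to 4 genes with the smallest p without pairs could be named; Abcb1b, Abcg1, Abcc5, Abcc10, Abca12 and Abca13 by library, and other low or list genes, were chosen after their values were seen. Promoter windows are RefSeq sequences of build GRCm38.p6, and shared stretches come from GENCODE M21 transcripts; CCAAT and GGGCGG were added after the data were seen. Protein sequences were not used here. Plots used Python 3.11.15 with matplotlib 3.10.9.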

Additional observations from a re-analysis of the deposited data

Results flagged for a closer look

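In 28 groups of 5 libraries, 1 for each tested member and treatment, the gap between the most extreme library and its nearest neighbour was compared with the whole range on the log2(FPKM + 1) scale. Such a test marks about 1 in 20 groups by chance, and 3 of 28 were marked. Abca13 stood apart at 1.65 FPKM in vehicle replicate 5, where the other vehicle libraries held at most 0.372 FPKM, and at 2.33 FPKM in WY-14643 replicate 10, where the others held at most 0.338 FPKM. Both libraries belong to the same numbered pair, with 700 and 1065 reads behind the values. Abcc10 stood apart at 0.988 FPKM in vehicle replicate 1, with 116 reads, where the other vehicle libraries held at least 3.06 FPKM; the lowest WY-14643 library, replicate 6 of the same pair, held 1.9 FPKM. The cause was not tested.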

How the results depend on the processing

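The count of all genes called, 0 without pairs, was 43 with the replicate block, 40 with the block and a pseudocount of 0.1, 2 with the block and no filter, 212 with voom and the block, and 21 with library weights, which gave vehicle replicate 3 a weight of 4.35 and WY-14643 replicate 8 a weight of 3.9. Leaving out libraries or numbered pairs gave 0 to 342. With the block, leaving out the pair of vehicle replicate 1, 2, 3, 4 or 5 gave 33, 3, 2, 13 and 33 genes, and with voom and the block 342, 169, 94, 126 and 151. The count of members called, 0, was 1 with voom and the block (Abcb1a) and 0 to 1 when libraries or pairs were left out, with 0 under the 9 other settings that kept all libraries. Abcb1a was called in 6 of 14 fits with the block and 0 of 17 without. The median log2 fold change of the tested members, 0.08, ranged from 0.05 to 0.17 over 30 alternatives, that of subfamily A from -0.05 to 0.12, and those of B and C from 0.08 to 0.16 and from 0.03 to 0.17. Members near 0 changed sign: Abca3 was 0.01 with library weights, and Abca13 was 0.14 with voom and the block but -0.53 with voom alone. Without the pair of vehicle replicate 1, 2, 3 or 4 Abca13 was 0.04, 0.00, 0.01 and 0.01 with the block and 0.26, 0.21, 0.18 and 0.16 with voom and the block, and it was 0.11 without WY-14643 replicate 9. When libraries or pairs were left out the range was -0.02 to 0.19 for Abca2, -0.06 to 0.03 for Abca3, -0.05 to 0.19 for Abca7, -0.18 to 0.13 for Abca12, -0.11 to 0.26 for Abca13, -0.21 to 0.05 for Abcc5 and -0.10 to 0.31 for Abcc10. Abcb1a, Abcb8, Abcb10, Abcc3 and Abcc4 kept their direction in all 30, and Abcc1 ranged from 0.00 to 0.07. The cause of these shifts was not tested. Depth limits the 28 members below the filter, 2 of which had no read.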
